A study of Rattus norvegicus with 6 samples.

Results

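Of 40 genes of G2, mitosis, the kinetochore, the spindle and cytokinesis, 34 were measured in rat renal cortex, and all 34 had a higher mean level in rats given p-nitroanisole than in rats given vehicle. Of these, Aurkb was well above background on every array of the treated group only. Over the whole array, 16886 of 32196 rows tested (named genes or unnamed probes) were higher. The list of 40 genes was made by gene function, with earlier results of these data known. A probe was taken as a member's when its transcript accession belonged to one of the 40 genes. The array carried 64 such probes, out of 28206 probes with a gene name and 15645 named genes. Of the 34 genes, Prc1, Cdc25b and Kif2c rose by the test across all genes, at an adjusted p under 0.05. Melk, Bub1b, Cenpe, Kif4a, Anln and Top2a were not analysed here, since no probe could be named for them.

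The study compared the cortex of male Sprague-Dawley rats (Crl:CD(SD)), bought at 5 weeks of age and given either corn oil or p-nitroanisole for 4 weeks. The dose of p-nitroanisole, an aromatic ether (a methoxy and nitro substituted benzene), was 500 mg/kg/day, and the vehicle group received corn oil alone. Each group had 3 animals, with 1 array per animal, and the submitters describe these as biological replicates. All animals had a basal diet and tap water, and none of the labels used here names a genetic change in either group. Total RNA was labelled with Cy3 and hybridised to 1-colour Agilent arrays. The animals are called vehicle 1 to 3 and treated 1 to 3.

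Mitosis starts when cyclin-dependent kinase Cdk1, bound to cyclin B, becomes active, and it ends when the anaphase-promoting complex marks cyclin B and securin for destruction. Between these steps kinetochores tie chromosomes to spindle microtubules, the spindle checkpoint holds back anaphase until all are attached, and the central spindle then directs cytokinesis. The mRNAs of these proteins accumulate in G2 and mitosis and are scarce in resting cells, and most cells of the adult renal cortex rest outside the cell cycle.

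Many promoters of such genes hold a CCAAT box, the binding site of the factor NF-Y, and a cell cycle homology region, an element bound by MuvB complexes. A RefSeq table of promoters (build GRCr8), each with 250 bases before and 50 bases after the gene's start, held 34 of the 40 members, of which 28 were also measured. It had no entry for Ube2c, Racgap1, Tpx2, Aurkb, Foxm1 and Ccna2. Both strands were searched for CCAAT, for the cell cycle homology letters TTTGAA or TTCGAA, and for the E2F letters TTTGGCGC, TTTCCCGC, TTTGCCGC or TTTCGCGC, and none of these motifs contains another. CCAAT was found in 25 of the 34 member promoters (73.5%) and in 37.5% of all 33469 promoters in the table. The cell cycle homology letters were also found in 25 of 34 (73.5%), against 19.7% of all promoters. Both motifs were present in 20 member promoters (58.8%), against 7.95% of all, and 18 (52.9%) had 2 or more CCAAT boxes, against 11.2%. The E2F letters were found in 1 member promoter (2.94%), that of Cdk1, and in 2.14% of all promoters.

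The 250 bases before the start are shown for 4 members, because these genes had the lowest adjusted p-values or came next to them among the members whose promoter held a motif. Capitals mark CCAAT, or ATTGG where it lies on the other strand, and the cell cycle homology letters. Prc1 lies at chr1:143659231-143659480 on the plus strand, Cdc25b at chr3:138859923-138860172 on the plus strand, Cenpf at chr13:103760887-103761136 on the minus strand and Nusap1 at chr3:127057045-127057294 on the plus strand (all GRCr8).
Prc1: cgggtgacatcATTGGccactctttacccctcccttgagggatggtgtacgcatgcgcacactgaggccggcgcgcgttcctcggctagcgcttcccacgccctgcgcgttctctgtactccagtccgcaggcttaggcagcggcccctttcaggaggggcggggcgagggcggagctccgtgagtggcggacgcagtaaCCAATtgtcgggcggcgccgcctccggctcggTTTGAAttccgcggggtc
Cdc25b: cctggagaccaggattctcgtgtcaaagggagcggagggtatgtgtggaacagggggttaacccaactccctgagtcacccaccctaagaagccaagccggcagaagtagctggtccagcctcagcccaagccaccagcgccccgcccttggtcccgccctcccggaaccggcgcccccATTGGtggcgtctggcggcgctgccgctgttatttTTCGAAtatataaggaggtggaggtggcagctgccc
Cenpf: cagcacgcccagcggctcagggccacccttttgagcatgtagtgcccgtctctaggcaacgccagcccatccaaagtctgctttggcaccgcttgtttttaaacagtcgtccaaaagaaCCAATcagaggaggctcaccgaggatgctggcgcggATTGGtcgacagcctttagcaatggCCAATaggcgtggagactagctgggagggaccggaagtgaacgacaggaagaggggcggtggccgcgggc
Nusap1: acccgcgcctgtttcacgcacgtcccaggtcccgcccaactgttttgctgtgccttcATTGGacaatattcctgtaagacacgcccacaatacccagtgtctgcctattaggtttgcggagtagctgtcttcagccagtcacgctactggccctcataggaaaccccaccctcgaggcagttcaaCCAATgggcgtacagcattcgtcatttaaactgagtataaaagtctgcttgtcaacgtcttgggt
In Prc1 and Cdc25b a CCAAT box is followed by a cell cycle homology match within this window. Cenpf and Nusap1 have 3 and 2 CCAAT boxes here, and their homology match lies after the start. The promoter of Kif2c, which also rose, held none of the 3 motifs in all 300 bases. Measured members with a CCAAT box (22 genes) had a median log2 difference of 0.98, with a range of 0.32 to 1.41, and the 6 without had 0.80, with a range of 0.40 to 1.29. For the cell cycle homology letters the order was the other way, with a median of 0.94 for the 21 with them and 0.98 for the 7 without. The ranges overlapped in both splits.

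Levels are log2 of the scanner's processed signal minus the 75th percentile of that array, so a level of 0 is the 75th percentile of the array's probes. Differences are treated minus vehicle means with the standard error (SE) of the limma fit, 3 arrays against 3. By the brightest tested probe of each gene, 33 of 34 measured members were well above background on all 3 vehicle arrays. Transcripts of nearly all measured members were thus detected in the cortex of the control rats. Of all probes on the array, 68.5% to 69.2% were well above background on single vehicle arrays. The exception among the members was Aurkb, which was well above background on 1 of 3 vehicle arrays and passed the detection filter through the treated group. The median difference over the 34 members was 0.96, with quartiles of 0.61 and 1.14, and over all 32196 rows tested it was 0.01, with quartiles of -0.10 and 0.14. A difference of at least 1 was found for 15 of the 34 members and for 247 of all rows, and with normexp correction of the median signals and an offset of 50 for 5 members and 106 rows.

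The 3 called members stand beside 16 rows called higher in the whole table, which is 0.0497% of the rows tested. An unadjusted p under 0.05 with a higher level was reached by 31 of 34 members, against 7.69% of all rows. In 31 of 34 members every treated array was above every vehicle array, against 11.9% of all rows. Both counts of 31 include Aurkb, which passed the detection filter through the treated group, where it was high. Among the 33 members well above background on all 6 arrays, 30 reached an unadjusted p under 0.05 with a higher level. The list was chosen with earlier results of these data known, so these shares describe it and test nothing. With 3 arrays a group, a two-sided exact permutation test of a single gene cannot go below 0.1. The 3 calls rest on all 6 arrays: with any 1 array left out, or with no filter on dim probes, 0 members were called, while with a trended robust variance 22 were.

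**Figure D1:**
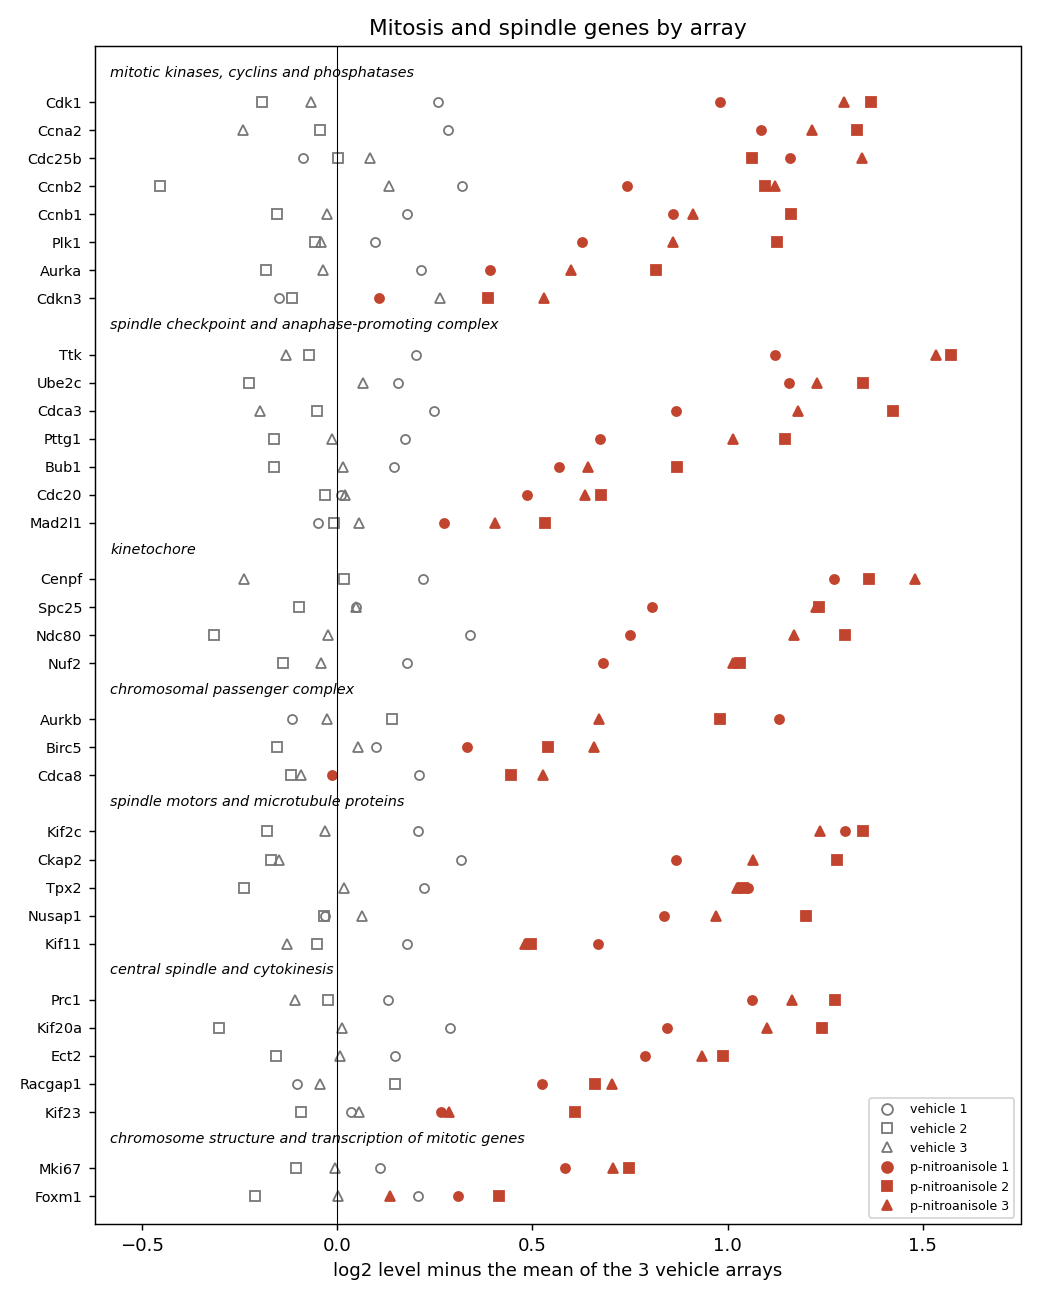
Log2 level of each measured member on each array, minus the mean of the 3 vehicle arrays, grouped by role; open grey symbols are vehicle and filled red symbols are p-nitroanisole, and the symbol shape gives the replicate number. Treated and vehicle arrays do not overlap in 31 of 34 genes, and overlap in Foxm1, Cdkn3 and Cdca8.

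Animals within a group differed in the same direction for most members. Over the 34 genes the median deviation from the vehicle mean was 0.18 on vehicle 1, -0.12 on vehicle 2 and -0.02 on vehicle 3. On the treated arrays it was 0.77, 1.08 and 0.99 for treated 1, 2 and 3. Vehicle 1 was the highest vehicle array in 26 of 34 genes and vehicle 2 the lowest in 23. Treated 1 was the lowest treated array in 28 of 34 genes and treated 2 the highest in 24. The spread within each group was therefore shared by most of the list, and it was smaller than the distance between the groups, since the lowest treated median (0.77) was above the highest vehicle median (0.18).

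Vehicle 1 to 3 and treated 1 and 2 were on slide 1, and treated 3 was alone on slide 2. Vehicle 1 to 3 and treated 3 were in slide row 1, and treated 1 and 2 in row 2. On slide 1, group and row therefore cannot be told apart. Within slide 1 the median difference was 0.97, all 34 members were higher, and none passed the adjusted threshold with 2 treated arrays.

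Several markers of red cell precursors and of neutrophils also had higher values in the treated cortex. In a list of 14 red cell precursor markers, 12 were on the array and 11 were tested. Of these 9 were higher, 6 with an unadjusted p under 0.05, and the median difference was 0.73. The summed linear level of the 11 was 14.6 to 17.1 on the vehicle arrays and 19.0 to 21.7 on the treated arrays. Slc4a1 had the highest level of the 11 on every array, so it weighed most in this sum, and it differed by 0.0029 (SE 0.17). Whether its signal came from red cell precursors or from kidney cells was not tested. Alas2, the first enzyme of heme synthesis in red cell precursors, rose by 1.91 (SE 0.14, adjusted p = 0.0403), while the transferrin receptor Tfrc had a difference of -0.84 and the factor Gata1 was not tested, being well above background on all 3 arrays of neither group. For neutrophil and myeloid precursors 4 of 8 markers were tested, with a summed level of 0.508 to 0.662 in vehicle and 1.34 to 1.45 in treated cortex. S100a8, a calcium-binding protein of neutrophils, rose by 1.78 (SE 0.16, adjusted p = 0.0453), and its partner S100a9 differed by 1.54 (SE 0.17). The granule gene Prtn3 differed by 0.0024 (SE 0.20), while the granule genes Elane, Ngp and Ctsg were not tested for the same reason. The part of these cells in the mitotic gene values was not tested.

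Proximal tubule markers, the check of the labelled tissue, were present on every array. Their summed level was 1042 to 1057 in vehicle and 1066 to 1126 in treated cortex, and none of 6 passed the adjusted threshold. Injured or regenerating tubule markers summed to 43.3 to 55.4 in vehicle and 40.6 to 45.0 in treated cortex, with 2 of 6 tested genes higher. Markers of T and NK cells were lower in 8 of 8, and those of macrophages in 5 of 7, with none passing the adjusted threshold. Fibroblast and mesangium markers were higher in 6 of 6, at a summed 16.4 to 17.7 against 18.6 to 19.8. In whole cortex, more cells in division and more mRNA per dividing cell cannot be told apart.

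Among the kinases, cyclins and phosphatases that start mitosis, 8 of 9 genes were measured, all 8 were higher, 7 had an unadjusted p under 0.05 and 1 passed the adjusted threshold, with a median difference of 0.98. Cdc25b, the phosphatase that removes inhibitory phosphates from Cdk1, was at -0.73, -0.64 and -0.56 on vehicle 1 to 3 and at 0.52, 0.42 and 0.71 on treated 1 to 3. The groups were far apart and treated 3 was the highest array. Cdc25b rose by 1.19 (SE 0.10, adjusted p = 0.0403), a 2.28-fold difference. Its other probes were higher too, with differences up to 1.44.

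Cdk1, the kinase itself, was at 0.63, 0.17 and 0.30 in vehicle and at 1.35, 1.74 and 1.66 in treated cortex. Treated 1 was the lowest treated array but lay above vehicle 1, the highest vehicle array, and the difference of 1.22 (SE 0.16) had an adjusted p of 0.0899. Its partners were close to it in size, at 1.21 (SE 0.15) for Ccna2, the S and G2 cyclin, 0.99 (SE 0.22) for Ccnb2 and 0.98 (SE 0.12) for Ccnb1, the mitotic B-type cyclins. Plk1, the polo-like kinase that acts from entry to cytokinesis, differed by 0.87 (SE 0.14), and Aurka, the centrosome and spindle pole kinase, by 0.60 (SE 0.15). Ccna2 ranged from -2.03 to -1.51 in vehicle and from -0.71 to -0.46 in treated cortex, and Ccnb1 from -2.69 to -2.36 and from -1.68 to -1.38. For both, the lowest treated array was far above the highest vehicle array. The gap was narrower for Aurka, from -1.17 to -0.77 in vehicle and from -0.60 to -0.17 in treated cortex, and for Ccnb2, whose vehicle arrays spread from -3.66 to -2.89 below treated values of -2.47 to -2.09. None of these 6 passed the adjusted threshold.

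Cdkn3, a phosphatase that acts on cyclin-dependent kinases, was the member of this group with overlapping arrays. It stood at -4.23, -4.20 and -3.82 in vehicle and at -3.97, -3.69 and -3.55 in treated cortex. Vehicle 3 was above treated 1, and the difference was 0.34 (SE 0.16, adjusted p = 0.420).

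The spindle checkpoint and anaphase-promoting complex genes were measured in 7 of 8 cases, and all 7 were higher with an unadjusted p under 0.05 and arrays that did not overlap. Their median was 0.94, and none passed the adjusted threshold. Ttk, the checkpoint kinase also called Mps1, was at -2.87, -3.15 and -3.20 in vehicle and at -1.95, -1.50 and -1.54 in treated cortex. Treated 1 was the lowest treated array, and the difference of 1.41 (SE 0.16), a 2.66-fold difference, had an adjusted p of 0.0680.

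Ube2c, the ubiquitin-conjugating enzyme of the anaphase-promoting complex, was at -2.25, -2.64 and -2.34 in vehicle and at -1.26, -1.06 and -1.18 in treated cortex. The treated arrays lay close together and above all vehicle arrays. The difference of 1.24 (SE 0.12) fell just outside the threshold, with an adjusted p of 0.0516. Cdca3, a gene linked to mitotic entry, differed by 1.16 (SE 0.18), and Pttg1, the securin that holds separase inactive, by 0.94 (SE 0.15). Smaller differences were found for Bub1, a checkpoint kinase at the kinetochore, at 0.69 (SE 0.12), for Cdc20, the activator of the complex, at 0.60 (SE 0.07), and for Mad2l1, the checkpoint protein that binds Cdc20, at 0.40 (SE 0.09). Mad2l1 had narrow groups, from -1.87 to -1.76 and from -1.55 to -1.29, so that a small difference separated them. Cdc20 likewise varied little within groups, from -0.66 to -0.61 in vehicle and from -0.15 to 0.04 in treated cortex.

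At the kinetochore 4 of 5 genes were measured, with a median of 1.08 and arrays that did not overlap in any of the 4. Cenpf, a large protein of the outer kinetochore, was at -4.57, -4.77 and -5.03 in vehicle and at -3.51, -3.43 and -3.31 in treated cortex. Every treated array was more than 1 log2 unit above the highest vehicle array, and the difference was 1.37 (SE 0.13, adjusted p = 0.0516). The subunits of the Ndc80 complex, which grips the microtubule end, had nearly equal differences, at 1.09 (SE 0.14) for Spc25, 1.07 (SE 0.21) for Ndc80 and 0.91 (SE 0.13) for Nuf2. Ndc80 itself had the widest vehicle spread of the 3, from -3.18 to -2.52, below treated values of -2.11 to -1.56. In each of the 3 subunits treated 1 was the lowest treated array.

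The chromosomal passenger complex, which corrects faulty attachments and moves to the central spindle in anaphase, had 3 of 3 listed genes measured, a median of 0.51 and no called gene. Aurkb, its kinase, was at -5.74, -5.48 and -5.65 in vehicle and at -4.49, -4.64 and -4.95 in treated cortex. Here treated 1 was the highest array, unlike most members, and the vehicle values lie next to background, with 1 of 3 well above it. The difference was 0.93 (SE 0.14, adjusted p = 0.113). Birc5, the subunit called survivin, differed by 0.51 (SE 0.12). Cdca8, the subunit called borealin, was at -4.50, -4.82 and -4.80 in vehicle and at -4.72, -4.26 and -4.18 in treated cortex. Its groups overlapped, with treated 1 below vehicle 1, and the difference was 0.32 (SE 0.17, adjusted p = 0.475).

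Spindle motors and microtubule proteins were measured in 5 of 6 cases, all without overlap, with a median of 1.04 and 1 called gene. Kif2c, a kinesin that takes apart microtubule ends at centromeres, was at -5.20, -5.58 and -5.44 in vehicle and at -4.10, -4.06 and -4.17 in treated cortex. The treated arrays differed little among themselves and lay about 1 log2 unit above vehicle 1, the highest vehicle array. Kif2c rose by 1.29 (SE 0.11, adjusted p = 0.0449), a 2.45-fold difference, from a level close to background.

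Nusap1, which bundles spindle microtubules, was at -1.77, -1.78 and -1.68 in vehicle and at -0.91, -0.54 and -0.77 in treated cortex. The vehicle arrays nearly coincided, and the difference of 1.00 (SE 0.11) had an adjusted p of 0.0648. Ckap2, a microtubule-associated protein, differed by 1.07 (SE 0.17), and Tpx2, the spindle protein that activates Aurka, by 1.04 (SE 0.12). Kif11, the kinesin that pushes the spindle poles apart, had the smallest difference of this group at 0.55 (SE 0.11). It was at 2.66, 2.43 and 2.35 in vehicle and at 3.15, 2.98 and 2.96 in treated cortex. Treated 1 was the highest array for Kif11, as for Aurkb and Tpx2.

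The central spindle and cytokinesis genes were measured in 5 of 6 cases, again without overlap, with a median of 0.90 and 1 called gene. Prc1, which cross-links the antiparallel microtubules of the central spindle, was at -1.85, -2.00 and -2.09 in vehicle and at -0.92, -0.70 and -0.81 in treated cortex. Both groups were narrow, and every treated array lay above every vehicle array. Prc1 rose by 1.17 (SE 0.10, adjusted p = 0.0403), a 2.25-fold difference. Kif20a, the kinesin that carries the passenger complex to the central spindle, differed by 1.06 (SE 0.18), and Ect2, the exchange factor that activates RhoA for the contractile ring, by 0.90 (SE 0.10). The subunits of centralspindlin had smaller differences, at 0.63 (SE 0.09) for Racgap1 and 0.39 (SE 0.11) for Kif23. Kif23 was at -2.24, -2.37 and -2.22 in vehicle and at -2.01, -1.66 and -1.99 in treated cortex. Only treated 2 stood well apart for Kif23, and the other treated arrays lay just above the vehicle arrays.

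Of the remaining genes, Mki67, which encodes the proliferation antigen Ki-67 on the chromosome surface, was at -0.00, -0.22 and -0.12 in vehicle and at 0.47, 0.63 and 0.59 in treated cortex. Its groups did not overlap, and the difference was 0.68 (SE 0.09, adjusted p = 0.0850). Foxm1, a transcription factor of G2 and mitosis genes, was at -1.19, -1.61 and -1.40 in vehicle and at -1.09, -0.99 and -1.26 in treated cortex. Treated 3 lay below vehicle 1, and the difference was 0.29 (SE 0.13, adjusted p = 0.418).

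Probes of the same gene were compared next. Of the 64 probes, 60 could be tested. Of these, 6 were not well above background on all 3 vehicle arrays and entered through the treated group, where they were high. The other 54 were all higher in the treated group, and 50 had groups that did not overlap. Of the 4 that could not be tested, 1 probe each of Bub1, Cenpf and Ect2 was above background on no array, and 1 probe of Kif2c was above it only on treated 3. Among the 54, 14 genes had more than 1 probe. In 13 of these the probes' differences lay within 0.5 of each other, and the median spread was 0.16. The 5 probes of Mki67 ranged from 0.68 to 0.86, and those of Ckap2 from 1.04 to 1.11.

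The exception was Cenpf, whose probes differed by 0.77 and 1.37. Of the probes near background, the dimmest one of Ccna2 was not well above it on any vehicle array, so the size of its difference is not known. The other 3 probes of Ccna2 ranged from 1.08 to 1.21. Of the called genes, Prc1 had a second probe at 0.77, below the 1.17 of the probe that stands for it. Kif2c had 1 other tested probe, well above background on 1 of 3 vehicle arrays, so its rise rests on 1 probe.

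**Figure D2:**
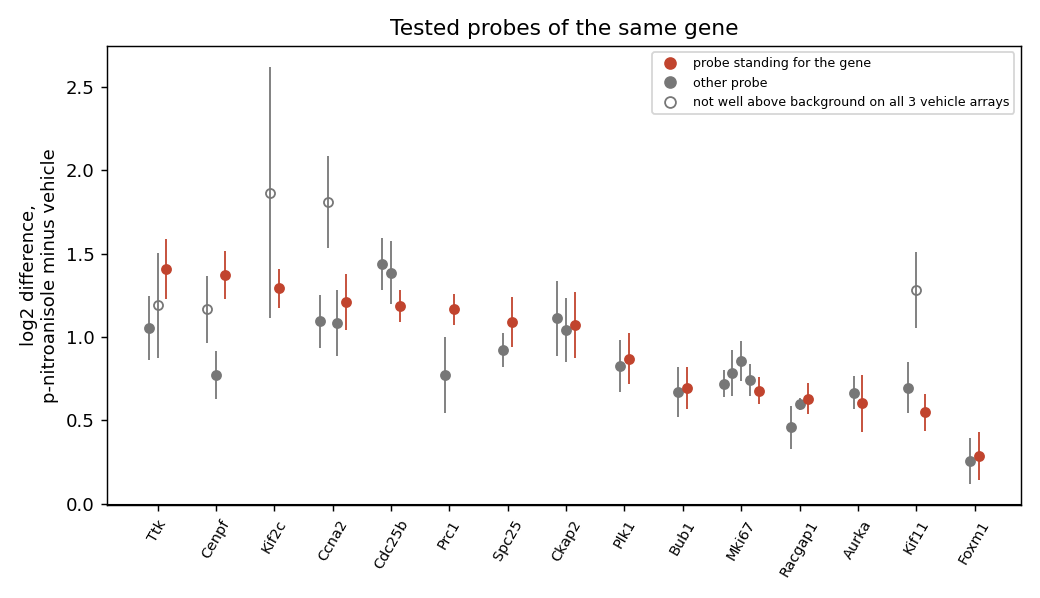
Log2 difference, p-nitroanisole minus vehicle, for every tested probe of the 15 members with more than 1; bars are the standard error from the standard deviations of the 2 groups of 3 arrays, red marks the probe that stands for the gene, and open symbols were not well above background on all 3 vehicle arrays, so their plotted differences rest on values near or below background. Filled symbols of 1 gene lie within 0.5 of each other in all but Cenpf (0.77 and 1.37).

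Cell cycle genes outside the 40 were compared by list. Of 23 other kinetochore and centromere genes tested, 18 were higher, 12 with an unadjusted p under 0.05 against 1 lower, with a median of 0.47. Of 21 other spindle, motor and centrosome genes, 19 were higher, 13 with an unadjusted p under 0.05 and none lower by that measure, with a median of 0.50. Of 25 further genes of mitotic entry and exit, 16 were higher, 5 with an unadjusted p under 0.05 against 2 lower, with a median of 0.05. Condensin and cohesin genes, which fold and hold chromosomes, were higher in 8 of 12, 2 with an unadjusted p under 0.05 against 1 lower, with a median of 0.03. The 8 include Esco2, which passed the detection filter through the treated group. Of 22 G1 cyclin, E2F and cell cycle inhibitor genes 13 were higher, 5 with an unadjusted p under 0.05 against 1 lower, with a median of 0.07. No gene of these 5 lists passed the adjusted threshold. Over all rows, 16886 of 32196 were higher, and 7.69% were higher with an unadjusted p under 0.05. The medians of the last 3 lists lie within the quartiles of all rows, and those of the first 2 do not. The mitotic entry and exit list holds many subunits of the anaphase-promoting complex, and its differences ran from -0.34 for Wee1 to 1.24 for Pbk.

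Cep55, which acts at the last cut of cytokinesis, differed by 1.10 (SE 0.13), and Fam83d, a spindle protein, by 1.02 (SE 0.10), both without overlap. Among kinetochore genes Cenpt, which links centromeric chromatin to the Ndc80 complex, differed by 1.21 (SE 0.28). Incenp, the scaffold of the passenger complex, differed by 1.74 (SE 0.66), but vehicle 1 at 0.99 lay among the treated arrays (1.22, 1.36 and 0.92) while vehicle 2 and 3 were at -1.55 and -1.16. The kinase Pbk differed by 1.24 (SE 0.29) and Cks2, which binds Cdk1, by 0.94 (SE 0.38), or 0.54 without vehicle 2. Esco2, which acetylates cohesin, was well above background on 1 of 3 vehicle arrays, and its difference was 1.13 (SE 0.49), or 0.56 without vehicle 3. The condensin subunit Ncapg2 differed by 0.23 (SE 0.09). In the G1 list E2f1, a factor of S phase entry, differed by 0.64 (SE 0.08), and Ccne1, the cyclin of the G1 to S step, by 0.63 (SE 0.12).

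**Figure D3:**
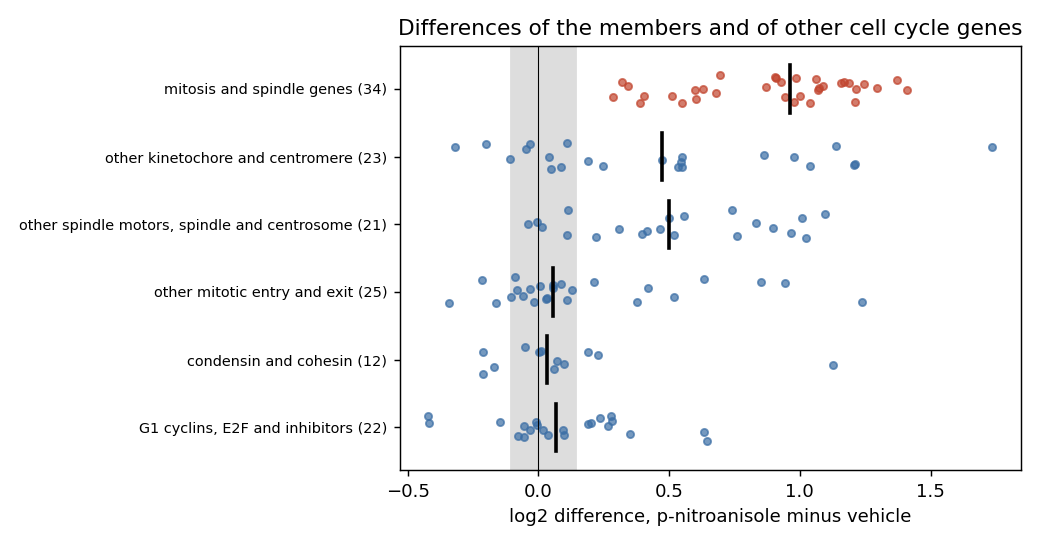
Log2 difference, p-nitroanisole minus vehicle, for each tested gene of the member list and of 5 other cell cycle lists, with the number tested in brackets; points are genes with random vertical spread, black bars are medians and the grey band is the middle 50% of all 32196 rows. Members have the largest median (0.96), spindle and kinetochore genes outside the list follow at 0.50 and 0.47, and the other 3 medians are 0.03 to 0.07.

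The differences were also computed from the median spot and background signals with normexp correction and an offset of 50, in place of the processed signal. An added offset shrinks log differences of dim probes by construction, and the parts of offset, correction and input signal were not told apart. In this setting the median difference was 0.71 in place of 0.96, and all 34 members remained higher. In 6 members the difference shrank by more than 1.5 times. They were Aurkb (0.93 to 0.26), Kif2c (1.29 to 0.53), Cenpf (1.37 to 0.71), Cdca8 (0.32 to 0.19), Tpx2 (1.04 to 0.65) and Nuf2 (0.91 to 0.59). All 6 were among the 7 members whose vehicle level lay nearest to background. For the other 27 members the median was 0.98 with the processed signal and 0.78 in this setting.

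**Figure D4:**
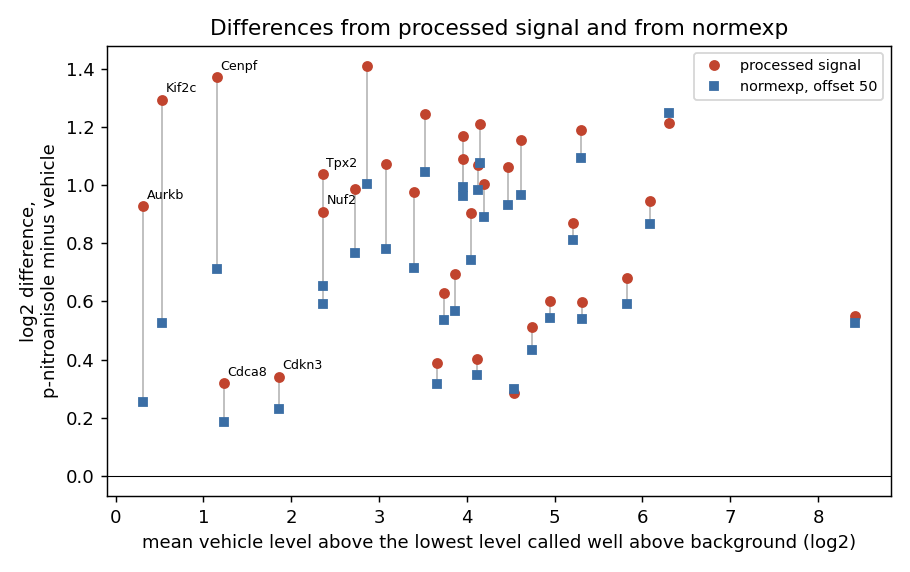
Log2 difference of each member with the scanner's processed signal (red circles) and with normexp correction of the median signals and an offset of 50 (blue squares), against the mean vehicle level above the lowest level called well above background, on a log2 axis; grey lines join values of 1 gene. Lines are longest on the left, for Aurkb, Kif2c and Cenpf.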

How the data were processed

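Renal cortex RNA of 6 rats was measured on 1 array each. The deposited values are scanner intensities: per the file headers, Agilent Feature Extraction 10.7.1.1 wrote a background-subtracted processed signal per probe (the submitters' processing notes give version 10.7). The design's probe annotation is of build rn4, so no gene coordinates were taken from it. The deposited series table holds those intensities divided by 1 constant per array, within 0.0241% of its 75th percentile, per a comparison with the scanner files, with column medians of 0.105 to 0.111.

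Each array has 61537 probes and 1439 control spots, left out here. Between 40877 and 42601 probes were well above background, and none was saturated. The number of arrays limits the precision. Processed intensity, with a floor of 1, was put on a log2 scale minus the array's 75th percentile. Probes were named by unversioned accession from a RefSeq gene table (45.84% named). A row needed a well-above-background flag on every array of 1 group or more to enter limma 3.58.1 (lmFit, eBayes, R 4.3.3; group only). There were 32196 such rows, of which 24 were called at a Benjamini-Hochberg adjusted p under 0.05, 16 higher and 8 lower, and 4329 had an unadjusted p under 0.05. The tested probe with the highest mean stands for a gene, and members were described with all probes.

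From each other list, called genes or else the 2 tested genes with the largest absolute difference were named. Members and lists were chosen with earlier results of these data known. The fit was checked on simulated data. Alternatives covered scaling, background correction, the series table, filters, probes, variance model, replicate block, slide and leave-one-out.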

Additional observations from a re-analysis of the deposited data

How the results depend on the processing

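All 34 members (33 with the 6-array filter) were higher under each of 16 alternatives, and the number with an unadjusted p under 0.05 was 30 to 33, but the adjusted calls moved with the setting. The 16 are not separate checks of direction. The variance model and the replicate block cannot change a difference, and the series table holds the same intensities. With either change of the filter on dim probes, the members' differences ran from 0.29 to 1.41, as in the main setting. From 3 members and 24 rows called, normexp correction of the median signals with an offset of 50 (3 choices changed at once) gave 12 members and 85 rows, with a median difference of 0.71, no filter on dim probes gave 0 and 2, and a trended robust variance gave 22 and 316. Probes well above background on all 6 arrays gave 5 members. The normexp input was chosen after seeing the data, and the version on mean signals was not run, as that column was not in the files used here. Within slide 1, the same arrays as without treated 3, 0 members and 15 rows were called. With the replicate block 0 members and 1 row were called. Deviations of same-numbered animals did not correlate (-0.00877, 0.0397 and -0.0102), so no pairing by number was seen. Shared handling of same-numbered animals was not tested. Leaving out each array in turn gave 0 members (lowest 0, highest 0) and 0 to 15 rows, with the median difference at 0.88 to 1.03. At an adjusted p under 0.01, 0 members and 0 rows were called. Prc1, Cdc25b and Kif2c were called in 7, 7 and 5 of 16 alternatives. Ttk had the largest difference of the members in 12 of 16 alternatives and Foxm1 the smallest in 10, counts that include the settings that cannot change a difference. Without vehicle 2 the difference of Foxm1 was 0.18, and without treated 1 that of Cdca8 was 0.49. Vehicle 2 was the lowest vehicle array for Foxm1 (-1.61), and treated 1 was the lowest treated array for Cdca8 (-4.72), so leaving each out raised the group's mean. Why these arrays were lower was not tested. In the 250 bases before the start, 25 member promoters (73.5%) held CCAAT, against 34.0% of all promoters. The cell cycle homology letters were there in 17 (50%), against 17.4% of all. In the 50 bases after the start, 1 member promoter (2.94%) held CCAAT, against 5.11% of all. The homology letters were there in 7 (20.6%), against 2.70% of all. These 2 windows differ in length, so their counts cannot be set against each other. Signal over background limits Aurkb and Kif2c most.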
